A study of Mus musculus with 20 samples.

Results

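Transcripts of 10 genes of the hepatocyte secretory programme were followed on arrays of blood RNA: Alb, Ttr, Apoa1, Apoa2, Apoc3, Serpina1a, Serpina1c, Ahsg, Fga and Fgb. Every non-control probe of the array that carries 1 of these gene names was taken, which gave 14 of 39429 probes and 10 of 28631 named genes. The genes were chosen by their signals on these same arrays, which varied widely between mice, so their levels, their differences between groups and their co-variation are descriptions. Calls are counted among them only to set out the values, and nothing is read from the counts. RNA from whole blood of single mice was hybridised to 20 single-colour Agilent arrays, 5 in each of 4 groups. The mice were male littermates of 8 to 10 weeks from heterozygous matings, labelled either WT (C57BL/6) or Il10-/- (B6.129P2-Il10tm1Cgn/J, which lack the anti-inflammatory cytokine IL-10 in every cell and serve as a model of inflammatory bowel disease). They received 7 Gy of X-rays to the whole body or a sham exposure of 0 Gy, and blood was drawn 24 h later by cardiac puncture into PAXgene solution and depleted of globin RNA. WT and Il10-/- are used below as the labels give them, and the unirradiated mice are called controls.

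Hepatocytes secrete most plasma proteins. Albumin and transthyretin carry small molecules, apolipoproteins build lipoprotein particles, alpha-1 antitrypsins and fetuin-A restrain proteases and mineral deposition, and fibrinogen forms the clot. Their genes are transcribed at very high rates in the liver under hepatocyte nuclear factors and C/EBP factors, and most of them are not known as products of circulating leukocytes. In whole blood RNA, fewer cells of a type and less RNA per cell cannot be told apart.

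The signal is a background-corrected intensity on the log2 scale from which the median of the array was subtracted, so that 0 is the median probe and 1 unit is a doubling. The feature software marks whether a spot is well above background, and this held for 29.9% to 57.8% of the spots of an array, with the lowest share on replicate 5 of the WT controls. Replicate numbers go with slides: the 5 slides carry the 4 groups once each, and all arrays of a slide have the same number. Of the blood cell markers, 7 of 7 platelet genes, 6 of 7 erythroid genes, 6 of 7 neutrophil genes, 5 of 6 T-cell genes, 3 of 5 monocyte genes and 3 of 7 B-cell genes were well above background on all 20 arrays. The probe of Il10, the targeted gene, went against the genotype label: it was well above background on all 10 arrays labelled Il10-/- (1.94 to 3.29) and on 0 of 10 WT arrays (−2.64 to −1.06). Which part of the gene the allele lacks is not given in the sources used here. Replicates 1 and 2 of each group resembled each other more than other replicates did, with a robust SD of 0.183 to 0.270 between them over all detected probes against 0.289 to 1.26 for the 36 other pairs within groups. This was still 1.502 to 2.05 times the noise between repeated spots, which leaves out the noise of labelling and hybridisation, so separate mice and a shared source of RNA cannot be told apart. They were kept as separate samples, as the labels give them, and values with their mean counted as 1 replicate are given where they change a count.

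Probe sequences are shown first because every value below rests on 1 or 2 probes of 60 bases per gene, and probes of the same gene did not always move together. Those of Alb, Apoa1, Apoa2, Fga and Fgb printed here, as the array files give them, each have at least 1 forward reading frame free of stop codons. This does not show that these probes lie in coding sequence. An annotation of their build was not used here.
Alb, A_51_P160713: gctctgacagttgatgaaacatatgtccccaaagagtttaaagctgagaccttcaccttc
Apoa1, A_51_P408082: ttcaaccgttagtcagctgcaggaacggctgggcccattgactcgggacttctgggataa
Apoa2, A_55_P1966035: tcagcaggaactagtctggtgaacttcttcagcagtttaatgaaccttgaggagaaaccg
Fga, A_51_P193813: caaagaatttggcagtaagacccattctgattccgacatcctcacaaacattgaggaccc
Fga, A_55_P2123381: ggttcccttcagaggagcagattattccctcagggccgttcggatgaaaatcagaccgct
Fgb, A_51_P428483: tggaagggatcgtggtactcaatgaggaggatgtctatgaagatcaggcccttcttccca

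In the mouse build mm9 the array files place these probes at chr5:90901598-90901657 (Alb, plus strand), chr9:46037921-46037980 (Apoa1, plus strand), chr1:173156320-173156379 (Apoa2, plus strand), chr3:82835678-82835737 and chr3:82837260-82837319 (Fga, plus strand) and chr3:82846334-82846393 (Fgb, minus strand). Fga and Fgb are neighbours on chromosome 3 and Apoa1 and Apoc3 on chromosome 9. The main probes of Serpina1a (chr12:105091819-105091878, minus strand) and Serpina1c (chr12:105133165-105133224, minus strand) share a run of 47 bases, so the signals of these near-identical genes are uncertain as to which of them they read. No other pair of the 14 probes shared a run longer than 9 bases.

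The 250 bases before the transcription starts of these genes were searched for 5 motifs on both strands. The motifs were GTTAAT, CAAAGNCCA (HNF4), TTGCNNAA (C/EBP), TATAAA (a core promoter element) and CCAAT. RefSeq promoters of GRCm38.p6 were on hand for 8 of the 10 genes, 9 promoters in all with a pair for Apoa2. GTTAAT was found in 5 of the 9 promoters, those of Alb, Serpina1a, Serpina1c, Fga and Fgb, and in 6.43% of all 32851 promoters on hand. Serpina1a and Serpina1c are near-identical genes, so their matches are not separate. TTGCNNAA was found in 5 of the 9, of Alb, Apoa2, Ahsg, Fga and Fgb, against 9.56% of all promoters. CCAAT was found in 5 of the 9 promoters, of 4 genes, against 33.8%. TATAAA was found in 1 of the 9, of Apoa2, against 12.4%, and CAAAGNCCA in none of the 9 against 1.70%. The promoters with GTTAAT of 4 genes follow, 5′ to 3′ on the strand of the gene, with every match to any of the 5 motifs in capitals; in Serpina1a a CCAAT match on the reverse strand and GTTAAT overlap in 1 run. Their positions are chr5:90460620-90460869 for Alb (plus strand), chr12:103863620-103863869 for Serpina1a (minus strand), chr3:83025903-83026152 for Fga (plus strand) and chr3:83049864-83050113 for Fgb (minus strand).
Alb: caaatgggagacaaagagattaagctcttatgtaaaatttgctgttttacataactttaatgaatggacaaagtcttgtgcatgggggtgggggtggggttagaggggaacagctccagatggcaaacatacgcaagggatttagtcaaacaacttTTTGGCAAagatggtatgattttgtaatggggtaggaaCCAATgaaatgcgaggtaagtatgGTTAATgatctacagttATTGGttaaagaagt
Serpina1a: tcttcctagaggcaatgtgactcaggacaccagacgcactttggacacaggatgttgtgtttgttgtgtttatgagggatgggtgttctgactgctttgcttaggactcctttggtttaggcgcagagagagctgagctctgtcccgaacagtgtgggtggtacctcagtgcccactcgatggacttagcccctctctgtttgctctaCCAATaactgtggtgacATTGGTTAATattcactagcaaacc
Fga: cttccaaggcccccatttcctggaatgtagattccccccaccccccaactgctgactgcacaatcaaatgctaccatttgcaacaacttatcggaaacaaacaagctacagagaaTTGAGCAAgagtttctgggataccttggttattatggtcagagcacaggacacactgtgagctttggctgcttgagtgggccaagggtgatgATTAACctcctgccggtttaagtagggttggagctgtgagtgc
Fgb: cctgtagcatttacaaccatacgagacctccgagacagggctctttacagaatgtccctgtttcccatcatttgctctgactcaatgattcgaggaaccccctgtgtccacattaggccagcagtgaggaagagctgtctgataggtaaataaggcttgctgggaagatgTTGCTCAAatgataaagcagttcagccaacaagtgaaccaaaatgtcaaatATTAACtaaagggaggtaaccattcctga

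GTTAAT or its reverse complement lies between −43 and −16 from the start in these promoters and that of Serpina1c. A match describes letters in this window and is not a measured binding site. Any relation of the motifs to the signals on the blood arrays was not tested.

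Albumin transcripts were barely detected in WT controls and spanned most of the measuring range in the other groups. In replicates 1 to 5 of the WT controls the Alb signal was 2.30, 2.40, 0.042, −1.02 and −1.83, and 2 of the 5 arrays were well above background. In irradiated WT mice it was 13.17, 13.42, 10.22, 3.31 and 6.91. The irradiated WT arrays all lay above the WT controls, and they differed among themselves by up to 10.1 units. In Il10-/- controls the signal was 3.16, 3.43, 9.98, 11.56 and 2.53, so 2 arrays were high and 3 low. In irradiated Il10-/- mice it was 11.48, 11.60, 1.83, 9.68 and 6.88, with replicate 3 below every control labelled Il10-/-. Group means ± SD (n = 5 each) were 0.38 ± 1.92 in WT controls, 9.41 ± 4.31 in irradiated WT, 6.13 ± 4.29 in Il10-/- controls and 8.30 ± 4.09 in irradiated Il10-/- mice. In the order of the means, the last 3 of these groups overlapped.

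Ttr, which encodes the carrier of thyroxine and of retinol-binding protein, was high on the same 8 arrays. Its signal ran from −1.70 to 1.29 in WT controls, from 1.40 to 11.21 in irradiated WT, from 0.52 to 9.31 in Il10-/- controls and from −0.15 to 9.33 in irradiated Il10-/- mice. Replicates 3 and 4 of the Il10-/- controls, at 8.06 and 9.31, again stood above the other 3, at 0.52 to 1.72.

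**Figure D1:**
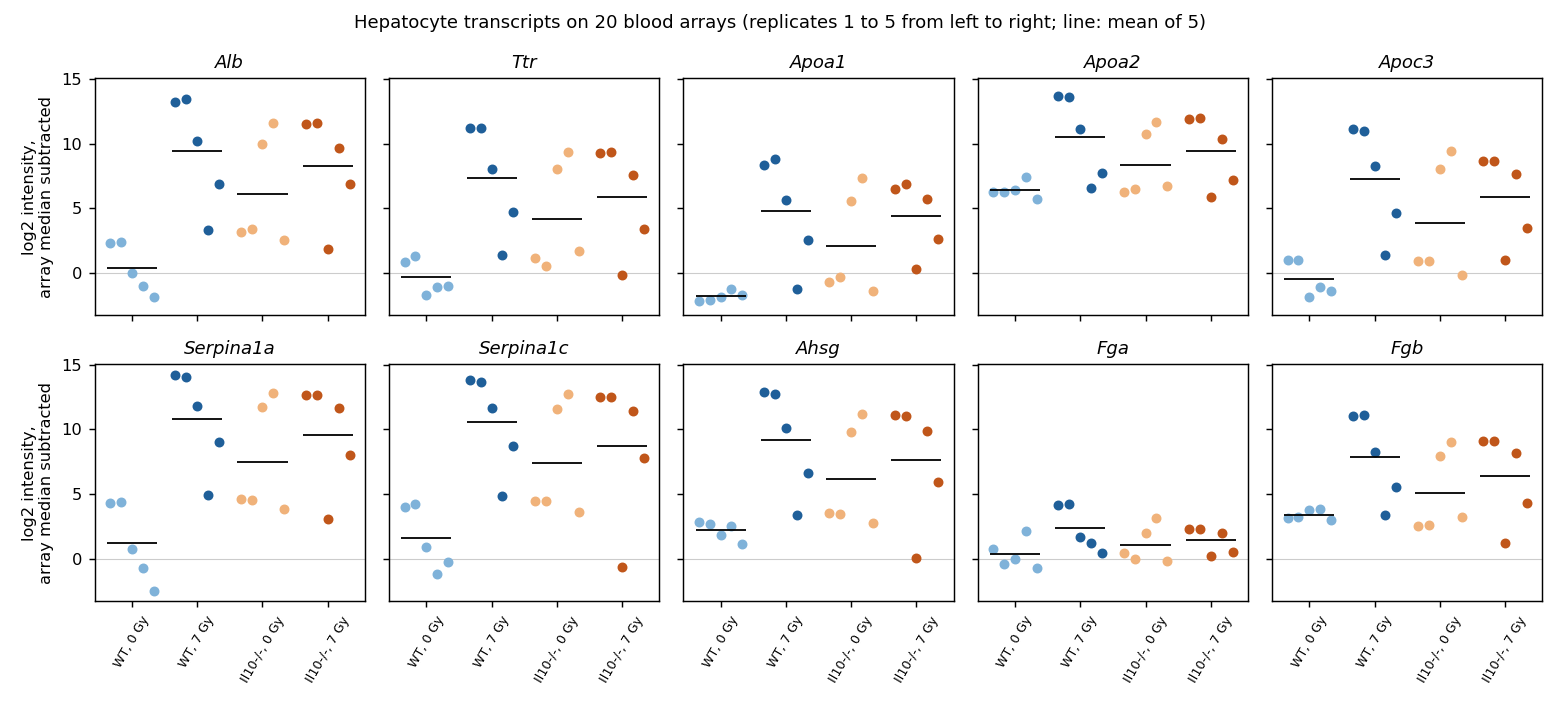
Signal of the 10 genes on the 20 blood arrays, with 1 panel per gene; the vertical axis is the log2 intensity minus the array median, points are single arrays in the order of replicates 1 to 5 and black lines are means of 5. The same arrays are high in nearly every panel, such as replicates 1 to 3 of irradiated WT and replicates 3 and 4 of Il10-/- controls, where Alb reached 13.42 and 11.56.

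Among the apolipoproteins, Apoa1, the main protein of high-density lipoprotein, was the faintest against background. Its probe, the mean of 10 spots, was well above background on 0 of 5 arrays of WT controls, 4 of 5 of irradiated WT, 2 of 5 of Il10-/- controls and 4 of 5 of irradiated Il10-/- mice, and it did not pass the background filter. The signals were −2.15, −2.08, −1.85, −1.19 and −1.66 in WT controls and 8.33, 8.77, 5.63, −1.19 and 2.56 in irradiated WT mice. In Il10-/- controls they were −0.68, −0.33, 5.58, 7.31 and −1.41, and in irradiated Il10-/- mice 6.46, 6.88, 0.35, 5.75 and 2.67. Replicate 4 of the irradiated WT mice was thus within the range of the WT controls. Because arrays of every group fell short of the background criterion for Apoa1, no fold is given for it.

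Apoa2, also of high-density lipoprotein, has a pair of probes with different floors. The brighter, A_55_P2178553, was well above background on all 20 arrays and never fell under 5.75. Its means were 6.42 ± 0.60 in WT controls, 10.52 ± 3.28 in irradiated WT, 8.38 ± 2.61 in Il10-/- controls and 9.44 ± 2.79 in irradiated Il10-/- mice (SD, n = 5). On the other probe, whose sequence is given above, the range over the 20 arrays was −1.996 to 12.60, and the order of the arrays at the top was alike: 12.60, 12.60 and 9.85 in replicates 1 to 3 of irradiated WT and 9.57 and 10.62 in replicates 3 and 4 of Il10-/- controls. Apoc3, an inhibitor of lipoprotein lipase, had probes that differed. A_55_P2117155 ranged from −1.83 to 11.13 over the 20 arrays, and A_55_P2013710, which the array files place elsewhere in the gene and pair with another transcript, only from −0.11 to 2.82 with means of 1.06 to 1.63 in the 4 groups.

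The protease inhibitors Serpina1a and Serpina1c encode alpha-1 antitrypsins, which block neutrophil elastase. Serpina1c gave 4.05, 4.28, 0.96, −1.14 and −0.21 in WT controls, 13.82, 13.65, 11.68, 4.90 and 8.73 in irradiated WT, and 4.46, 4.47, 11.61, 12.74 and 3.66 in Il10-/- controls. In irradiated Il10-/- mice it gave 12.47, 12.49, −0.61, 11.46 and 7.77, the widest spread of any member within a group (SD 5.56). Serpina1a, measured with the overlapping probe, ran from −2.43 to 4.36 in WT controls and from 4.92 to 14.19, 3.85 to 12.78 and 3.11 to 12.65 in irradiated WT, Il10-/- controls and irradiated Il10-/- mice. Its other probe, which shares no long run with that of Serpina1c, kept the same high and low arrays, at 11.70 and 11.67 in replicates 1 and 2 of irradiated WT and 0.33 in replicate 3 of irradiated Il10-/- mice. Ahsg, which encodes fetuin-A, a plasma inhibitor of calcification, was well above background on 19 of 20 arrays, with means of 2.22 ± 0.72, 9.15 ± 4.10, 6.15 ± 4.00 and 7.61 ± 4.71 (SD, n = 5) in WT controls, irradiated WT, Il10-/- controls and irradiated Il10-/- mice.

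Fibrinogen is built from chains encoded by Fga, Fgb and Fgg. Fgb was 3.15, 3.26, 3.79, 3.85 and 2.98 in WT controls, 11.01, 11.09, 8.26, 3.41 and 5.53 in irradiated WT, 2.55, 2.60, 7.95, 9.03 and 3.21 in Il10-/- controls, and 9.09, 9.07, 1.21, 8.18 and 4.31 in irradiated Il10-/- mice. Unlike Alb, its WT controls were all well above background and close together (SD 0.39), and replicate 4 of the irradiated WT mice lay among them. The main probe of Fga, A_55_P2123381, was flatter than all other main probes. It ran from −0.67 to 2.17 in WT controls, 0.43 to 4.23 in irradiated WT, −0.17 to 3.14 in Il10-/- controls and 0.24 to 2.29 in irradiated Il10-/- mice. The other Fga probe, A_51_P193813, did not pass the background filter but ranged from −2.47 to 6.67, with 6.42 and 6.67 in replicates 1 and 2 of irradiated WT and 3.36 and 4.35 in replicates 3 and 4 of Il10-/- controls.

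The mean over the 9 genes with a probe that passed the background filter, all but Apoa1, was used as a score for each array. It was 1.66 ± 1.13 in WT controls (0.261 to 2.84), 8.36 ± 3.62 in irradiated WT (3.39 to 11.69), 5.53 ± 3.65 in Il10-/- controls (2.68 to 10.09) and 7.03 ± 3.67 in irradiated Il10-/- mice (1.40 to 9.90; SD, n = 5). The 5 irradiated WT arrays lay above the 5 WT controls, the closest being 3.39 against 2.84, and every other pair of groups overlapped. Ordered by the score, 8 arrays lay between 8.72 and 11.69, 2 at 6.03 and 5.28, and 10 between 0.261 and 3.39. The 8 highest held 3 irradiated WT arrays, 2 Il10-/- controls and 3 irradiated Il10-/- arrays. For 9 of the 10 genes the same 8 arrays were the highest, and the exception was Fga, where replicate 4 of the WT controls came among them.

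**Figure D2:**
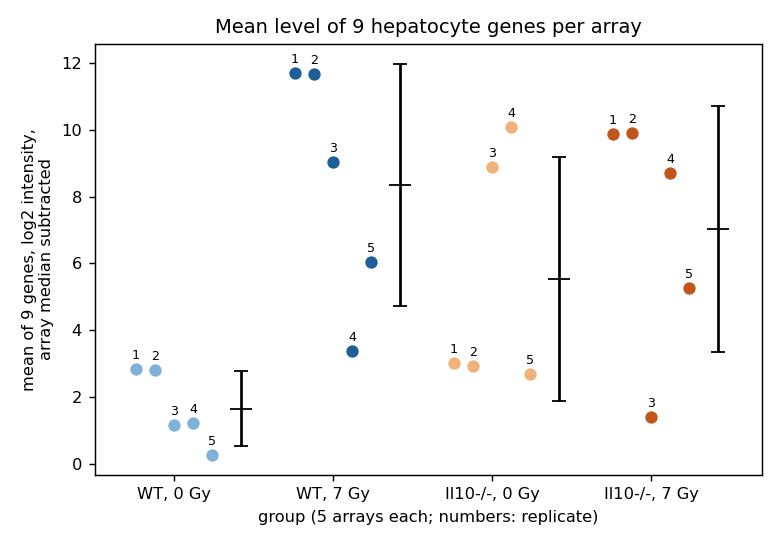
Mean log2 signal of 9 hepatocyte genes on each array, array median subtracted, by group; points are arrays with their replicate number and bars are the mean ± SD of 5 arrays. WT controls stay at or under 2.84, and each of the other groups holds arrays above 9 as well as arrays under 3.4.

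Within groups the genes rose and fell together. After the group means were subtracted, the 36 pairs of the 9 genes correlated over the 20 arrays with Pearson's r between 0.674 and 0.987, median 0.954 (Spearman's rho, median 0.934). Pairs with Fga were the lowest, with a median of 0.804, and without Fga the other 28 pairs had a lowest r of 0.868. Apoa1, measured near background, correlated with the 9 others at a median of 0.955. The points share arrays, array medians and labelling, and they are a description. Against the mean of the other members, the slope was steepest for Serpina1c (1.29 units per unit) and flattest for Fga (0.31), with 0.73 for Apoa2, 0.87 for Fgb and 1.12 to 1.19 for Alb, Serpina1a, Apoc3, Ttr and Ahsg. The flat Apoc3 probe correlated with the other members at r = 0.104.

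**Figure D3:**
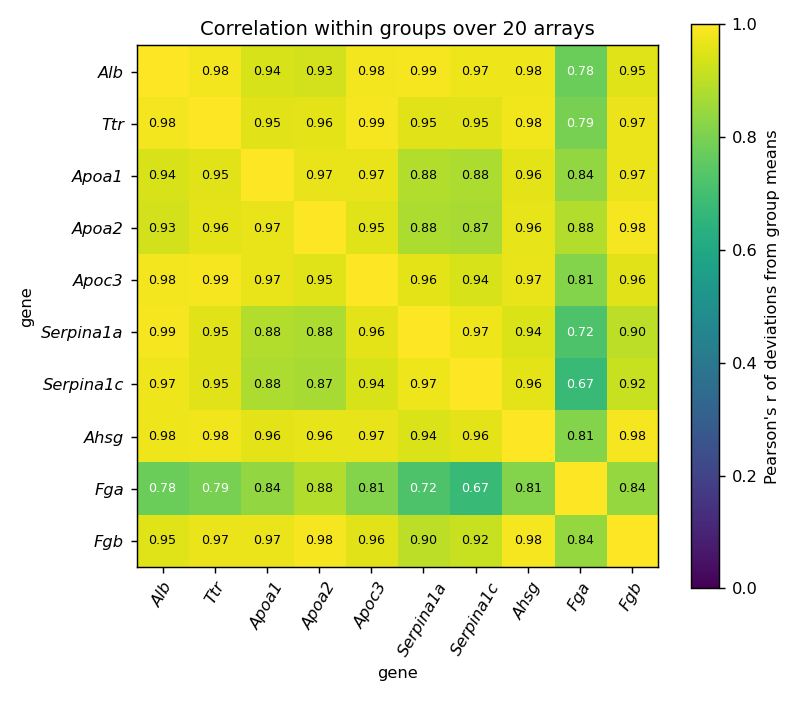
Pearson's r between each pair of the 10 genes over the 20 arrays, after subtraction of group means; colour and number give r. Fga stands out with values from 0.67 to 0.88, and the pairs of the other genes reach 0.87 or more.

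The spread within groups was wide beside that of the array as a whole. The median SD of the 9 genes was 1.31 in WT controls, 3.90 in irradiated WT, 4.18 in Il10-/- controls and 4.09 in irradiated Il10-/- mice, where the median over all 18587 tested probes was 0.797, 0.507, 0.421 and 0.473. In each of the groups other than WT controls, 8 of the 9 genes exceeded the 99th percentile of the SD of all tested probes, and 2 of 9 did so in WT controls. The genes were chosen with their wide variation on these arrays known, so this ranking follows from the choice and is no evidence of unusual spread. Between replicates 1 and 2 of a group the 10 genes differed by a median of 0.049 to 0.166, against 1.16 to 5.61 for the other pairs of replicates of a group.

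The comparisons of groups use limma fitted over all 18587 tested probes, and calls required both an unadjusted p below 0.001 and a false discovery rate under 10% after Benjamini-Hochberg adjustment. Each SE is the moderated SE of limma, which draws the variance of a gene towards that of all tested probes. For genes as variable as these it is smaller than the spread between mice would give. Of the members, 9 of 10 genes passed the filters on low values, and since a gene could pass through the arrays on which it was high, the counts are no support for a difference. Between the unirradiated groups, 1 of 9 genes was called higher in Il10-/- than in WT controls, where 0.845% of all tested probes were called higher and none lower. This gene was Alb, with a difference of 5.75 ± 1.41 (SE; 2.94 with normexp background correction), and it was the only one of the 9 without overlap between the groups, beside 3.98% of all probes without overlap in that direction. The other differences ran from 0.71 ± 0.63 for Fga to 6.26 ± 1.58 for Serpina1a, with a median of 4.29 over the 9 genes where all tested probes had a median of 0.36. On single slides the score differed by 0.187, 0.135, 7.74, 8.87 and 2.42, so replicates 3 and 4 held most of the difference. With the slide as a block 7 of 9 genes were called, and with replicates 1 and 2 averaged 4 of 9. The block count is no measure of how well the slides agreed. For Alb the moderated SE of the block fit was 0.756, while the differences on single slides ran from 0.859 to 12.58. With other scalings, filters or a shared fit of all groups 0 were called, as without replicate 3 or 4 of the Il10-/- controls or replicate 3, 4 or 5 of the WT controls.

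The radiation response of WT mice was the widest difference. Of 9 genes 6 were called higher, Alb, Ttr, Apoc3, Serpina1a, Serpina1c and Ahsg, beside 4.48% of all tested probes called higher and 2.32% called lower. The signal rose by 9.03 ± 1.52 for Alb, 7.64 ± 1.43 for Ttr, 7.70 ± 1.43 for Apoc3, 9.54 ± 1.58 for Serpina1a, 8.97 ± 1.45 for Serpina1c and 6.93 ± 1.35 for Ahsg (log2 ± SE). For Ahsg, well above background on all 10 arrays, this was a 122-fold difference of the means. The other 5 were well above background on only 2 or 3 of the 5 WT controls, and with normexp the differences were 6.41 for Alb, 4.76 for Ttr, 4.90 for Apoc3, 7.25 for Serpina1a and 7.23 for Serpina1c. In all 6 the irradiated arrays lay above every control, beside 11.8% of all probes without overlap in that direction. Apoa2 (4.11 ± 1.10), Fgb (4.45 ± 1.12) and Fga (1.97 ± 0.73) were not called. The other probe of Apoa2 differed by 8.57 ± 1.66 and was called, and the other probe of Serpina1a by 7.04 ± 1.34 and was called. Slides 1 to 5 gave score differences of 8.85, 8.85, 7.87, 2.17 and 5.77, and the genes were higher in 10 of 10 on every slide but slide 4, where it was 6 of 10. With the slide as a block 8 of 9 genes were called, again with moderated SEs. With normexp background correction 3 of 9 were called, with the authors' table of processed values 3 of 10, and without replicate 5 of the WT controls, the array with the fewest spots above background, 3 of 10.

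**Figure D4:**
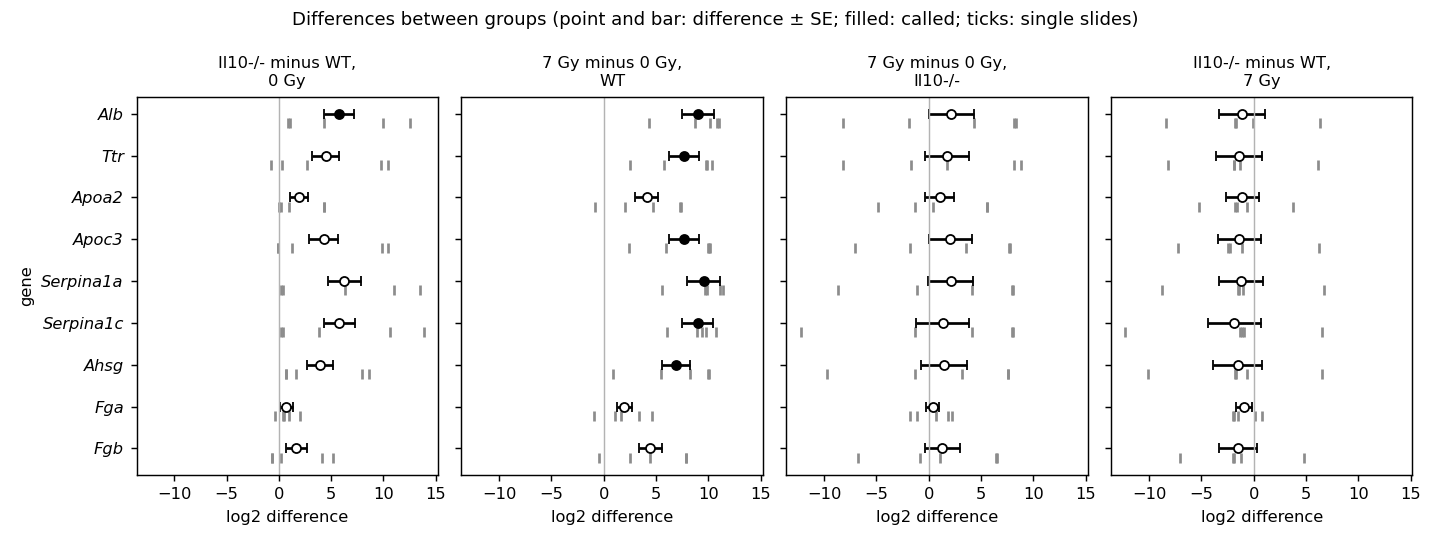
Differences between groups for 9 genes, on the log2 scale; circles and bars are the difference ± SE from limma on 5 against 5 arrays, filled where the probe was called, and grey ticks below them are the differences on each of the 5 slides. In the WT response 6 genes are filled at 6.93 to 9.54, and in the Il10-/- response and between the irradiated groups the slides fall on both sides of 0.

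In Il10-/- mice the direction of the radiation response differed between slides. None of the 9 genes was called by limma, and 0 of 9 reached an unadjusted p under 0.05, beside 3.29% of all tested probes called higher, 5.87% called lower and 35.5% with an unadjusted p under 0.05. The differences were 0.37 ± 0.66 for Fga to 2.16 ± 2.14 for Alb, with a median of 1.45 against −0.10 for all tested probes. With single replicates left out, the Alb difference ran from 1.26 to 3.78. The irradiated array of slide 3 had 34.6% of its spots well above background, near the lowest share of any array. On slides 1 and 2 the score was 6.85 and 6.96 higher after irradiation and on slide 5 it was 2.59 higher, with 10 of 10 genes higher, while on slides 3 and 4 it was 7.49 and 1.37 lower with 0 of 10 genes higher (−7.49 and −1.37 as irradiated minus control). Between the irradiated groups, 0 of 9 genes were called and 0 of 9 reached an unadjusted p under 0.05 in limma, beside 0.00538% of all probes called and 11.1% with an unadjusted p under 0.05. The differences, Il10-/- minus WT, were −0.89 ± 0.77 for Fga to −1.84 ± 2.50 for Serpina1c, and slide 4 went the other way (5.33) from slides 1, 2, 3 and 5 (−1.81, −1.76, −7.63 and −0.758).

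The response in Il10-/- mice minus that in WT mice had a median of −5.65 over the 9 genes where all tested probes had −0.20, and ranged from −7.64 ± 3.17 for Serpina1c to −1.60 ± 1.07 for Fga. None of the 9 genes was called in the interaction in limma, and 5 of 9 had an unadjusted p under 0.05, beside 0% of all probes called and 7% with an unadjusted p under 0.05. Since the genes were chosen by these values, the count is not read as an excess. The response in each genotype and the interaction share their control and irradiated arrays.

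Other hepatocyte genes, listed by function and with the same earlier results in view, followed the 10 genes. Of 82 listed genes 80 were measured and 78 were well above background on at least 1 array. Their mean signal correlated with the score at r = 0.972 after removal of group means (rho = 0.961; 0.972 without the 2 arrays farthest from the median), and 66 of the 80 genes reached r of 0.8 or more, where 451 of 17533 genes that passed the background filter did so (2.57%). These shares rest on unlike sets: only 61 of the 80 genes passed that filter, and the 17533 hold hepatocyte genes too. The number of the 80 genes well above background was 13 to 41 on arrays of WT controls, 36 to 78 in irradiated WT, 42 to 77 in Il10-/- controls and 22 to 78 in irradiated Il10-/- mice. Of the 60 that were tested, 38 were called higher after irradiation in WT (beside 4.48% of all tested probes), 7 higher in Il10-/- than in WT controls (beside 0.845%) and 2 higher after irradiation in Il10-/- mice (beside 3.29%), with median differences of 5.94, 2.93 and 1.65. None of them was called lower.

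By function, the plasma carriers tracked the 10 genes most closely. Gc, the vitamin D-binding protein, ran from −2.47 to 0.71 in WT controls and from 0.91 to 11.35 in irradiated WT, and Rbp4, the retinol carrier that travels with transthyretin, from −2.14 to 1.95 and from 1.30 to 11.79. Of 8 further apolipoproteins all 8 had r of at least 0.8, with Apob, Apoc1 and Apoc4 at 0.89, 0.98 and 0.92. Among 10 coagulation genes 8 did so. Fgg, the remaining fibrinogen chain, had r = 0.97 and F2, prothrombin, 0.98, while F9 had 0.44. The protease inhibitors Serpina1d, Serpina1e and Serpina3k had r of 0.99, 0.96 and 0.99, and the first of them belongs to the same near-identical family as Serpina1a. Genes of the acute phase, whose transcription in the liver rises in inflammation, differed in their level in WT controls, where 2 to 3 of 6 were well above background on an array. Saa2 lay between −1.90 and −0.51 there and between 4.56 and 13.33 in irradiated WT mice. Saa1 lay between 4.21 and 6.14 and Hp between 7.52 and 9.28 in WT controls, and in irradiated WT Saa1 and Hp ran from 10.16 to 12.97 and from 8.85 to 12.85, without overlap for Saa1 and with it for Hp. Neutrophils also hold Hp transcripts.

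Genes of hepatocyte metabolism, whose products stay in the cell, moved with those of secreted proteins. All 12 genes of amino acid and urea metabolism and all 6 of glucose and fructose metabolism had r of at least 0.8, among them Ass1 (0.94) and Arg1 (0.83) of the urea cycle and Pck1 (0.90) of gluconeogenesis. Of 8 cytochromes P450 5 did so, with Cyp2e1, Cyp2f2 and Cyp2d10 at 0.95, 0.92 and 0.98 and the lowest at 0.732. Of 5 transport and bile acid genes 3 followed, and Slc10a1, the bile acid transporter of the basal membrane, did not: its signal stayed between 12.06 and 13.37 on all 20 arrays (r = 0.055). In WT controls, where Alb was barely detected, it was 12.57 to 13.07, and what its probe reads was not tested. Hnf4a, the nuclear receptor that drives hepatocyte genes, ran from −1.61 to 0.49 in WT controls and from −1.30 to 7.80 in irradiated WT (r = 0.95), and Onecut1 and Prox1 were not well above background on any array.

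**Figure D5:**
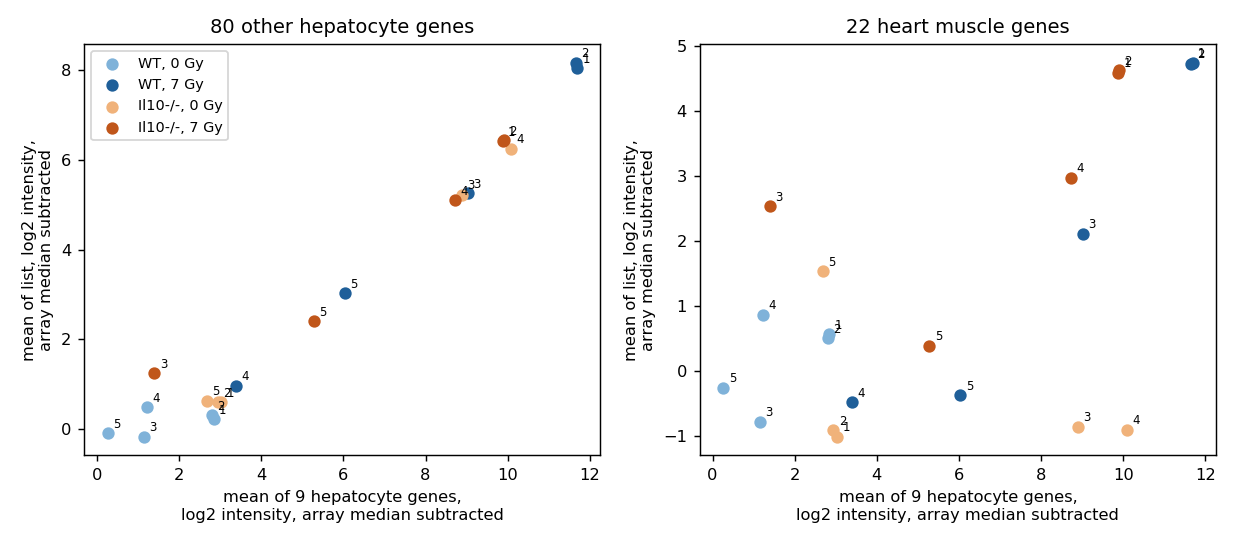
Mean log2 signal, array median subtracted, of 80 other hepatocyte genes (left) and 22 heart muscle genes (right) against that of 9 hepatocyte genes; each point is 1 array, coloured by group and numbered by replicate. On the left the mean rises with the score, though not among the lowest scores. There replicate 3 of irradiated Il10-/- mice has a score of 1.40 and a mean of 1.24, and replicate 1 of WT controls 2.84 and 0.22. On the right replicates 3 and 4 of Il10-/- controls combine scores of 8.89 and 10.09 with heart means of −0.86 and −0.91.

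The genes most like the 10 over all 17533 genes were ranked by the correlation of their deviations from group means with the score. Of the 15 highest, with r from 0.984 to 0.995 over 20 arrays, 10 stand in the lists above, led by Gc, Serpina1d and Itih4. The other 5 were Mup-ps16 (0.993), Asgr1 (0.989), Adh1 (0.989), Cyp2d26 (0.986) and Mup4 (0.985); Asgr1 is a subunit of the asialoglycoprotein receptor of hepatocytes, Adh1 an alcohol dehydrogenase, and Mup genes encode the major urinary proteins. The 5 lowest were Erich5 (−0.854), Rgs20 (−0.849), Impg1 (−0.846), 2900040C04Rik (−0.845) and Pi4k2a (−0.842). Of the probes called higher in the response of WT mice, members left out, 184 of 824 (22.3%) had r of at least 0.8 with the score, and so did 42 of 156 (26.9%) of those called higher in Il10-/- controls and 4 of 611 (0.655%) in the response of Il10-/- mice, beside 3.04% of all tested probes. None of those called lower did so, 0 of 431 in WT and 0 of 1091 in Il10-/- mice.

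Markers of other cells of the liver were less uniform. Clec4f, a lectin of Kupffer cells, ran from −1.71 to 1.11 in WT controls and from −0.39 to 5.74 in irradiated WT and had r = 0.91 with the score, while the other 4 Kupffer cell genes listed had r under 0.8, with Vsig4 at 0.22 and Cd5l at 0.10. Of these 5 genes 4 were called higher after irradiation in WT (beside 4.48% of all tested probes) and 4 in Il10-/- mice (beside 3.29%), with median differences of 4.36 and 2.60. Of 5 sinusoidal endothelial genes 1 reached 0.8, and their mean had r = 0.810 (0.762 without the 2 farthest arrays). Among 5 bile duct and 5 stellate cell genes none reached 0.8.

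Heart muscle genes varied between the arrays as well. All 22 listed were well above background on at least 1 array, and their number per array was 1 to 13 in WT controls, 3 to 20 in irradiated WT, 6 to 15 in Il10-/- controls and 6 to 19 in irradiated Il10-/- mice. Myh6, the atrial and adult mouse ventricular myosin heavy chain, ranged from −0.92 to 11.19. Their mean correlated with the score at r = 0.549 (rho = 0.547; 0.481 without the 2 farthest arrays, 0.437 with replicates 1 and 2 averaged). None of the 22 genes reached r of 0.8, and their median was 0.509. Of 13 tested, 0 were called higher after irradiation in WT (beside 4.48% of all tested probes). In Il10-/- mice 6 were called higher (beside 3.29%) and 1 lower (beside 5.87%). Replicates 1 and 2 of both irradiated groups were high in both lists, with heart means of 4.59 to 4.74. Replicates 3 and 4 of Il10-/- controls had high scores and heart means of −0.86 and −0.91, and replicate 3 of irradiated Il10-/- mice had the low score of 1.40 and a heart mean of 2.53. The score also moved with the mean of 6 adipocyte genes (r = 0.729, with 1 gene at 0.8 or more and a median of 0.137 over the genes), with the share of spots well above background (r = 0.643) and against the means of the erythroid (−0.641) and platelet (−0.573) lists. It moved against the means of the kidney (−0.587), lung epithelium (−0.567) and bile duct (−0.525) lists too, so this was not particular to blood cell lists. The part of any of these in the differences between groups was not tested.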

How the data were processed

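Blood RNA of 20 mice was measured on single-colour Agilent arrays. The authors deposited the Feature Extraction output of each array, whose headers name version 12.0.2.2 where the labels name 10.7. Their processed-signal column gives the intensity of a spot after the software's background correction, with no scaling between arrays. A deposited series table holds the authors' processed values on the log2 scale and served as an alternative. Here spots marked as non-uniform outliers were dropped, log2 intensities were averaged over repeated spots, and each array was centred on its median over 39429 non-control probes. Following the study's methods, probes marked as outliers or not above background on 25% of arrays or more, or with fewer than 20% of arrays 1.5-fold from the probe median, were removed, which left 18587 of 39429. Gene names and mm9 positions are those of the array files.

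Groups were compared with limma 3.58.1 (lmFit and eBayes, R 4.3.3) on the 10 arrays of each pair of groups, and the interaction on all 20. The remaining values came from pandas 2.3.3, scipy 1.17.1 and numpy 2.4.6 under Python 3.11.15, and the plots from matplotlib 3.10.9. The steps were tested on simulated data. The value of a gene is that of its brightest probe among those that pass the background filter. Means, detection counts and correlation counts of whole lists use the brightest probe of each gene, whether or not it passed. Of each list the counts and the first 3 passing genes in listed order could be named, and over all genes the 15 most and 5 least like the score. The number of arrays and the signal over background limit the precision. Members and lists were chosen with earlier results of these data known. Of 6 pairs of groups none had all 5 slides correlated above 0.1 in their deviations from group means, and 2 had 4 (mean r 0.223 for the WT groups and 0.414 for the irradiated groups), so the slide was not in the fit. Alternatives were other scalings, background correction, filters, call rule and samples in the fit, the slide as a block, replicates 1 and 2 averaged, and each replicate left out. Listed genes without a probe under their name were not analysed here, and some listed genes are not reported here.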

Additional observations from a re-analysis of the deposited data

Results flagged for a closer look

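Within groups of 5 arrays, the gap of the highest or lowest array to its neighbour was set against the range of the group. Of 52 groups examined, 4 for each of the 10 genes, for the score, for the mean of the other hepatocyte genes and for that of heart muscle genes, 1 held an array that stood apart, where chance gives about 1 in 20. In Il10-/- controls the mean of 22 heart muscle genes was 1.53 in replicate 5 and −1.01 to −0.86 in the other 4, a gap of 0.940 of the range. The score of replicate 5 was 2.68, the lowest of that group. None of the 10 genes had such an array in any group.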

How the results depend on the processing

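The number of the 9 genes called higher in Il10-/- than in WT controls was 1 and depended on the setting. It was 0 with the 75th percentile, quantile normalization, the reference array, normexp, the series table (10 genes), no filter (10 genes), the background filter only, a Benjamini-Hochberg rate under 5% alone or all 4 groups in 1 fit, 7 with the replicate block, 4 with replicates 1 and 2 averaged, and 0 to 5 with single replicates left out, the 0 without replicates 3 or 4 of the Il10-/- controls or 3, 4 or 5 of the WT controls. In the WT response 6 were called, 3 with normexp and with the series table, and 3 to 8 with single replicates left out, the 3 without replicate 5 of the WT controls. The replicate block gave 8 there and changed no call in the other comparisons, where counts were 0 in every setting. Its SEs were drawn towards the variance of all tested probes, so its counts are no measure of how well the slides agreed. The correlation of deviations was over 0.1 on 4 of 5 slides in 2 of 6 pairs of groups and on 2 in the others, short of the 5 taken to show pairing. The cause of these changes was not tested.

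The median correlation within groups was 0.954 and stayed between 0.934 and 0.977, with 0.949 under the replicate block. The SD of the score in WT controls was 1.13 and fell to 0.488 with normexp and 0.465 in the series table, which leaves out marked spots. In the other groups it was 2.18 to 4.16 over all settings and left-out replicates. Of 1026 recomputed differences of single genes 1018 moved by less than the SD between replicates, which is wide here. The 8 that moved further were all with normexp: between the controls Alb fell to 2.94, Serpina1a to 3.59, Ttr to 1.84 and Apoc3 to 1.90, and in the WT response Alb to 6.41, Ttr to 4.76, Apoc3 to 4.90 and Fga to 0.78. Signs changed in 5 of 189 in the Il10-/- response and in 6 of 189 between the irradiated groups, in genes not called. Signals near background limit the low arrays: 10 of 20 arrays measured Apoa1.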

Other observations

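The means of marker lists of further tissues were low on most arrays, though not every gene in them was. In the kidney and lung lists 1 gene each was well above background on all 20 arrays. Of 10 skeletal muscle genes 6, of 7 lung epithelial genes 5 and of 7 kidney genes 3 were well above background on at least 1 array, and Myh1, Myh2 and Myh4 of fast skeletal muscle, Ager and Sftpa1 of lung and Umod, Slc12a1 and Slc12a3 of kidney were so on none. The lung surfactant gene Sftpb stayed between −2.02 and 1.69, and Aqp2 of the kidney list ran from 5.26 to 8.89 over the 20 arrays. Of 7 intestinal genes 5 were detected at least once, and Fabp2, an intestinal fatty acid-binding protein, followed the score with r = 0.93 and ran from −0.62 to 5.50 in irradiated WT. Sis, sucrase-isomaltase, reached 4.69 in irradiated Il10-/- mice against a median of −1.20 in that group. All 7 pancreatic acinar genes were detected at least once, with list means from −1.01 to 2.62 over the 20 arrays.

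Blood cell lists moved in their own ways. Of 6 B-cell genes tested 5 were called lower after irradiation in WT (beside 2.32% of all tested probes) and 5 in Il10-/- mice (beside 5.87%), with medians of −2.94 and −3.62. The mean of the B-cell list had r = 0.048 with the score within groups. Of 7 neutrophil genes 4 were called higher in Il10-/- than in WT controls (beside 0.845% of all tested probes), with a median of 1.90.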
